A study of Homo sapiens with 6 samples.

Results

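The metallothioneins and the genes that carry zinc and copper into, through and out of the cell were followed in RNA-Seq of HepG2 cells, an established human liver cancer line. The group holds 43 of the 20422 genes in the count table. It is made up of 11 metallothioneins, the metal-responsive transcription factor MTF1, 10 zinc exporters of the SLC30 family, 14 zinc importers of the SLC39 family, 4 copper transporters and 3 copper chaperones. Each member was taken by its gene symbol, and all 43 were found. The group itself was chosen on results of the comparison described here, in which MT1X had the smallest p-value of the whole table, so the differences between NC and ORF-Flag below are a description.

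The 6 libraries fall into 3 of control HepG2 (NC) and 3 of HepG2 that overexpressed APPLE, a microprotein encoded by ASH1L-AS1, with a Flag tag (ORF-Flag). The sample labels describe HepG2 given empty vector plasmids in NC and plasmids for the tagged reading frame in ORF-Flag, while the study's methods describe stable lines made with lentiviral vectors and selected with puromycin. The level of the construct was not analysed here, so the labels are taken as given. Neither source says whether the replicates of a group were grown separately, so the errors given here measure only the spread between these samples, which may be technical. Sequencing gave 20081203 counts for NC replicate 1, 24907524 for replicate 2 and 30088457 for replicate 3. ORF-Flag replicate 1 had 26866148 counts, replicate 2 had 17494668 and replicate 3 had 27015836. At these depths 3 counts, the limit that a count of 0 allows, stand for between 0.0997 and 0.171 CPM (counts relative to library size) in a library before TMM scaling, for counting error only. All CPM below are after TMM scaling.

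The labelled cell type was checked against its markers. All 8 hepatocyte-lineage genes looked at were counted in every library, and their summed level lay between 21430 and 22480 CPM. ALB and APOB were abundant, while TTR lay at only 5.63 to 6.66 CPM. Of 7 genes that mark immune, endothelial and fibroblast cells, PTPRC, CD3E and DCN had 0 counts in all 6 libraries and COL1A1 had at most 2 counts. LYZ was the abundant gene of that list, at 1255, 1401 and 1396 CPM in NC and 1488, 1591 and 1488 CPM in ORF-Flag. Without LYZ the list summed to 4.75, 4.12 and 5.05 CPM in NC and to 6.56, 5.51 and 6.26 CPM in ORF-Flag, mostly from the endothelial marker PECAM1, and every ORF-Flag value lay above every NC value. LYZ was higher in ORF-Flag by a log2 fold change of 0.17 (standard error, SE, 0.04), and both it and the hepatocyte gene FGB, at 0.14 (SE 0.04), passed an adjusted p below 0.05. Of the other hepatocyte-lineage genes, ALB, at 0.08 (SE 0.03), and SERPINA1, at 0.09 (SE 0.03), also had ORF-Flag above NC in all libraries, while APOB was at -0.07 (SE 0.03) with groups that overlapped. These 3 did not pass in edgeR, and SERPINA1 passed in DESeq2. Groups without overlap came to 3 higher and 0 lower of the 8 hepatocyte-lineage genes, beside 11.5% and 10.9% of all tested genes. PECAM1 was at 0.39 (SE 0.13) and did not pass the adjusted threshold. The part of these genes in the differences below was not tested.

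Metallothioneins are small, cysteine-rich proteins that bind zinc, copper and cadmium, and the liver is a main site of their synthesis. When free zinc rises, MTF1 binds metal response elements in the promoters of metallothionein genes and of the zinc exporter SLC30A1 and raises their transcription, and glucocorticoids and oxidant stress also induce several metallothioneins. SLC39 proteins bring zinc into the cytosol, SLC30 proteins move it out of the cytosol or into vesicles, and copper enters through SLC31A1, is handed on by chaperones and is pumped by ATP7A and ATP7B.

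MTF1 is known to act on metallothionein genes and SLC30A1 through metal response elements. Promoters are therefore shown for 4 metallothioneins of different level and for SLC30A1. They are RefSeq sequences of GRCh38.p14 that run from 250 bases before to 50 bases after the gene start in RefSeq, and capitals mark the core of the metal response element, TGCACNC or TGCGCNC on either strand. MT2A lies at chr16:56608334-56608633, MT1X at chr16:56682220-56682519, MT1B at chr16:56651636-56651935 and MT1H at chr16:56669564-56669863, all on the plus strand. SLC30A1 lies at chr1:211579112-211579411 on the minus strand. Each sequence is written 5′ to 3′ on the strand of its gene. The RefSeq starts of MT2A, MT1X, MT1B and SLC30A1 differ from those of GENCODE v29, which the positions further below use, while that of MT1H does not. GENCODE starts MT2A at chr16:56608199, upstream of the whole window, and SLC30A1 at chr1:211578742, downstream of it.
MT2A: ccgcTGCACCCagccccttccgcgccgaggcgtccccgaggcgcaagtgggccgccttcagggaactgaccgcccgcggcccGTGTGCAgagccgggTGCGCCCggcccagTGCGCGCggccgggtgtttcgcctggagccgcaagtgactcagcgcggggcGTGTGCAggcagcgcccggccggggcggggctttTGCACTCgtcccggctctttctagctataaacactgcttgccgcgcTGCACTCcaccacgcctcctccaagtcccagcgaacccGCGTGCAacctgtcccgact
MT1X: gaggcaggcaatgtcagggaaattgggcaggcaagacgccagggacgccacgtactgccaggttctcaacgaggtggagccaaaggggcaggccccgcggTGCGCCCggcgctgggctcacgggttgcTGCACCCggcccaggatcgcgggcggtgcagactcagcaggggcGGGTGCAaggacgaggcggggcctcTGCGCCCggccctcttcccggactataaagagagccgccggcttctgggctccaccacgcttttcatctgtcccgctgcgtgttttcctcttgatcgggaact
MT1B: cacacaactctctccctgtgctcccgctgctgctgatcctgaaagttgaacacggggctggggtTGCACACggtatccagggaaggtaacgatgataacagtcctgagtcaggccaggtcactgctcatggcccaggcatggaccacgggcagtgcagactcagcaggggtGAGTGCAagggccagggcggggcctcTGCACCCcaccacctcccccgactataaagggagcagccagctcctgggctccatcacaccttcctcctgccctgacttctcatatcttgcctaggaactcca
MT1H: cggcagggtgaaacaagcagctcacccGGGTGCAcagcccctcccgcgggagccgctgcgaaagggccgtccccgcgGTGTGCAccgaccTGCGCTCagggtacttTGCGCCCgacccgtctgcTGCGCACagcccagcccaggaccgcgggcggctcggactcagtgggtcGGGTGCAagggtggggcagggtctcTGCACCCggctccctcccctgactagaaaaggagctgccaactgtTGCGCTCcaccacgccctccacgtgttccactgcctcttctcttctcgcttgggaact
SLC30A1: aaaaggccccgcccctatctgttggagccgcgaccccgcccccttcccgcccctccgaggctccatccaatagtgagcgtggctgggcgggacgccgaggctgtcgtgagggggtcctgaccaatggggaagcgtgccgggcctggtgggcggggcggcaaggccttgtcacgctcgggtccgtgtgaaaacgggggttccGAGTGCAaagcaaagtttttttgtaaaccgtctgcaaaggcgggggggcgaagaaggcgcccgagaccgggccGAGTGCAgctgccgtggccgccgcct

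These windows held 8 cores in MT2A, 4 in MT1X, 3 in MT1B, 8 in MT1H and 2 in SLC30A1. A promoter was found for 33 of the 43 members, and none for MT1A, MT1E, MT1F, MT1G, MT1M and MT3. All 5 metallothionein promoters in the RefSeq table held the core at least 1 time (MT4 is the other), as did 10377 of all 35116 promoters of the same length, which is 29.6%. At least 4 cores stood in 3 of the 5 metallothionein promoters and in 0.601% of all promoters. Among the other members, the core was found in 6 of 11 SLC30 promoters, 7 of 19 SLC39 promoters and 6 of 9 promoters of copper genes, some genes having several promoters. The MTF1 promoter held 0 cores. A match to these letters is a description and does not show that MTF1 binds there.

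Metallothionein transcripts were lower in ORF-Flag than in NC as a family. The summed level of the 11 genes was 751, 786 and 714 CPM in the NC libraries, in the order of their replicate numbers, against 376, 422 and 382 CPM in the ORF-Flag libraries in that order, which all values below follow. Every ORF-Flag library lay below every NC library. When the rows of the family were replaced by their sum, the log2 fold change was -0.93 (SE 0.04), which leaves 52.4% of the NC level. The sum does not depend on how reads were divided among these similar genes. In RNA from a bulk culture, a lower level in each cell and a smaller number of cells that express the genes cannot be told apart.

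**Figure D1:**
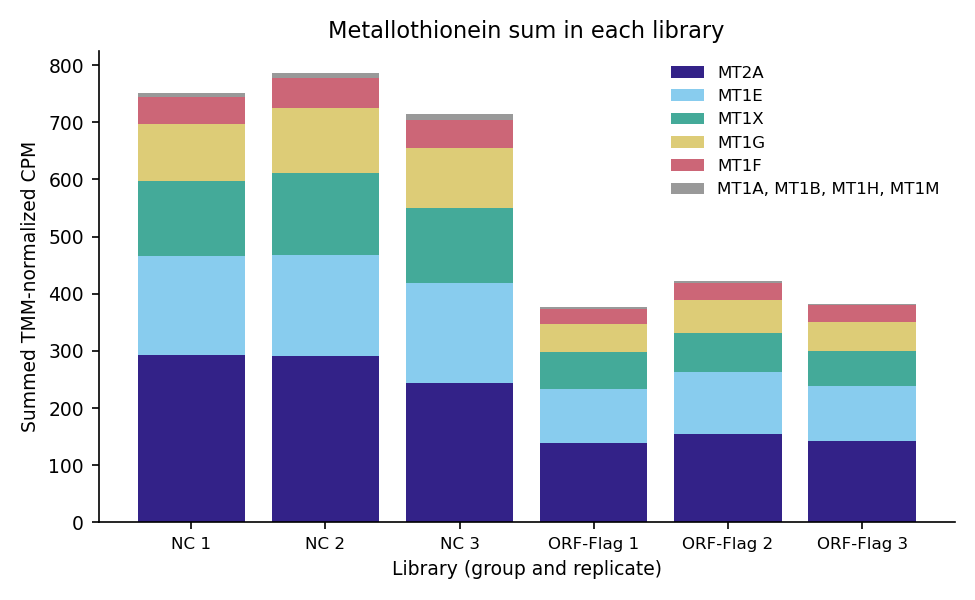
Summed TMM-normalized CPM of the metallothioneins in each of the 6 libraries, with a coloured segment for each gene and the 4 low genes joined in grey. The NC bars reach 714 to 786 CPM and the ORF-Flag bars 376 to 422 CPM, with MT2A the largest segment in each.

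Of the 11 metallothioneins, 8 had enough counts for the test, and all 8 were called lower in ORF-Flag, which means an adjusted p below 0.05 by the quasi-likelihood test of edgeR. Over all 43 members, 35 were tested, 9 were called lower and 0 were called higher. In the whole table, 245 of 12386 tested genes (1.98%) were called lower and 306 (2.47%) were called higher. The members were chosen with this comparison known, so nothing is read from that difference in share. The median log2 fold change was -1.05 over the 8 tested metallothioneins, -0.02 over the 27 other tested members and -0.0012 over all tested genes. By a fold change above 1.2 with an unadjusted p below 0.05, 10 members were lower, beside 2.16% of all tested genes, and 0 were higher, beside 2.37%. At an unadjusted p below 0.05 alone, edgeR had 11 members lower, beside 9.22% of all tested genes, and 3 higher, beside 9.29%. Both limma fits also had 11 lower and 3 higher, beside 9.28% and 9.53% of the same genes in limma-trend and 8.91% and 9.24% in limma-voom. DESeq2 had 9 lower and 2 higher, beside 5.03% and 4.72% of the 16366 genes to which it gave a p. After adjustment edgeR and both limma fits called 9 members lower, and DESeq2 called 6, without MT1A, MT1B and MT1M, to which it gave no adjusted p. Each tool called 0 members higher.

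MT2A (ENSG00000125148.7), which with MT1X is among the widely expressed members of the family, had the most counts. Its level was 293, 291 and 244 CPM in NC and 138, 155 and 142 CPM in ORF-Flag. NC replicate 3 was the lowest of the controls and still lay above the highest ORF-Flag library. The log2 fold change was -0.93 (SE 0.05). MT1X (ENSG00000187193.9) fell from 131, 144 and 131 CPM in NC to 64.2, 69.2 and 60.6 CPM in ORF-Flag, and its log2 fold change was -1.07 (SE 0.05). The groups were far apart compared with the spread within either. MT1E (ENSG00000169715.15) had nearly equal values in the NC libraries, at 174, 176 and 175 CPM. It lay at 95.9, 107 and 97.2 CPM in ORF-Flag, and the log2 fold change was -0.81 (SE 0.04).

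MT1G (ENSG00000125144.14), the only metallothionein of the cluster that the annotation places on the minus strand, lay at 99.4, 113 and 104 CPM in NC and at 48.2, 57.5 and 51.0 CPM in ORF-Flag. ORF-Flag replicate 2 was the highest of its group, as it was for MT2A, MT1X and MT1E, but stayed below each NC library. The log2 fold change of MT1G was -1.03 (SE 0.05). MT1F (ENSG00000198417.7) lay at 47.1, 52.6 and 49.4 CPM in NC and at 27.64, 30.16 and 29.04 CPM in ORF-Flag, with a log2 fold change of -0.79 (SE 0.06). Among the 8, MT1F and MT1E had the changes nearest to 0, and their standard errors overlapped.

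The other 3 tested metallothioneins were counted far less often. MT1B (ENSG00000169688.11) had 55, 113 and 134 counts in NC and 13, 20 and 14 counts in ORF-Flag, or 2.72, 4.52 and 4.48 CPM against 0.484, 1.15 and 0.519 CPM. Its log2 fold change of -2.56 (SE 0.27) was the lowest of all 12386 tested genes in this fit, and left 16.9% of the NC level. MT1M (ENSG00000205364.4) had 61, 54 and 105 counts in NC and 17, 25 and 23 counts in ORF-Flag, with a log2 fold change of -1.65 (SE 0.26). For both genes the groups did not overlap in CPM, but the counts were small and the errors larger than that of MT1X. MT1A (ENSG00000205362.11) had 28, 30 and 52 counts in NC and 21, 6 and 20 counts in ORF-Flag, with a log2 fold change of -1.15 (SE 0.29). MT1A did not pass the adjusted threshold without NC replicate 3, without ORF-Flag replicate 2 or without ORF-Flag replicate 3, where its log2 fold changes were -0.97, -0.93 and -1.26.

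MT1H, MT3 and MT4 were not tested. MT1H had between 1 and 6 counts in a library, and its promoter held 8 cores, as did that of MT2A. MT3, the metallothionein known from brain, and MT4, known from stratified epithelia, had 0 counts in all 6 libraries.

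**Figure D2:**
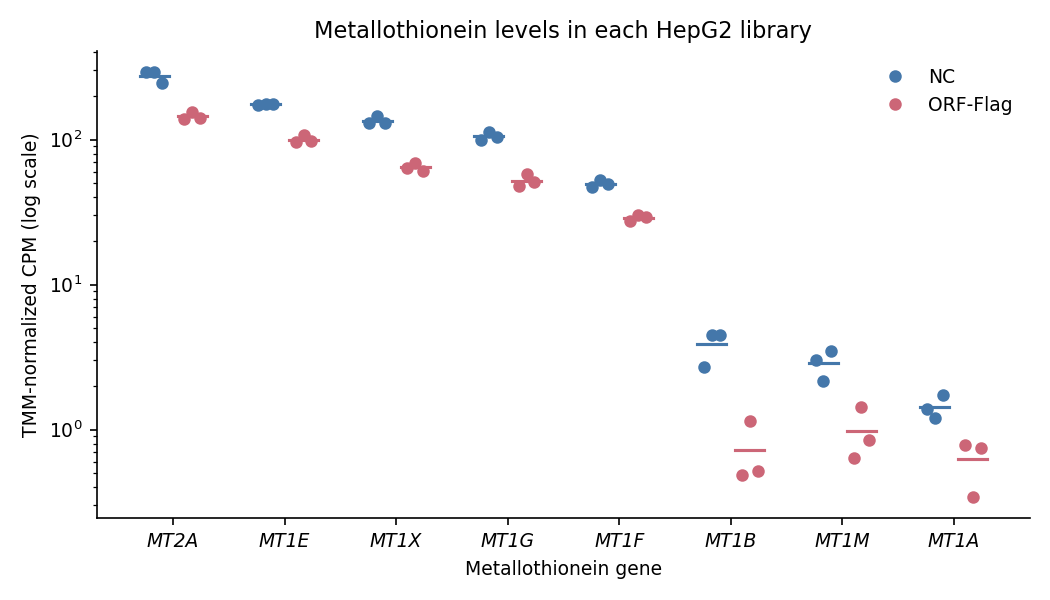
TMM-normalized CPM, on a log scale, of the 8 tested metallothioneins in 3 NC and 3 ORF-Flag libraries. Each point is a library and each short line the mean of a group, and for every gene the ORF-Flag points lie below the NC points.

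The same 5 genes, MT2A, MT1E, MT1X, MT1G and MT1F, made up most of the metallothionein sum in both groups. MT2A made up 36.7% ± 2.41 (SD, n = 3) of the summed counts in NC and 36.9% ± 0.238 in ORF-Flag. MT1E took 23.4% ± 1.07 in NC and 25.5% ± 0.0338 in ORF-Flag, and MT1F took 6.63% ± 0.328 and 7.36% ± 0.233. For both the ORF-Flag libraries lay above the NC libraries. MT1X took 18.1% ± 0.568 in NC and 16.4% ± 0.596 in ORF-Flag, and MT1B 0.522% ± 0.140 and 0.179% ± 0.0807, with ORF-Flag below NC in each case. MT2A, MT1G, MT1M, MT1A and MT1H had shares that overlapped between the groups.

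Compared per length of the principal transcript in GENCODE v29, the NC levels were 351 CPM per kb for MT2A, 301 for MT1X, 260 for MT1G, 249 for MT1E and 72.1 for MT1F. MT1B followed at 10.3, MT1A at 3.64 and MT1M at 3.49 CPM per kb. The order among the abundant genes depends on the length used. With the joined length of all annotated exons, a choice made after seeing the data, MT2A was at 212, MT1E at 166, MT1G at 141, MT1X at 76.4 and MT1F at 26.3 CPM per kb, and MT2A was the highest on both scales.

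Metallothionein transcripts resemble each other, and how the authors' counting treated reads with several matches is not given in the sources used here. Of the 31-base stretches of the principal MT1X transcript, 48.1% also occur in a transcript of another gene, most of them in AC026461.1, which overlaps MT1X on the same strand and has no row in the count table. Stretches of MT1X shared with another gene that has a row came to 19.3%. MT1B is overlapped on the same strand by AC026461.2, which has no row either and holds 26% of the MT1B stretches. The share found in any other gene was 31.4% for MT1G, 31.1% for MT1B, 18.9% for MT1A, 18.8% for MT1M, 15.3% for MT1E, 12.2% for MT2A and 8.33% for MT1F. The value of each of these genes is uncertain, and these shares do not measure by how much. The summed value is affected by reads that were dropped, that went to genes outside the family or that came from such genes.

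All 11 metallothionein genes lie within 119.1 kb of chromosome 16, at chr16:56565049-56684196 in GENCODE v29 on GRCh38. The genes around this cluster were looked at after the data were seen. Of 12 other genes of the table within 500 kb on either side, 10 were tested and 0 were called in edgeR, DESeq2 or either limma fit, with 2 lower at an unadjusted p below 0.05 in edgeR and both limma fits and 1 in DESeq2, beside 9.22% of all tested genes in edgeR and 5.03% in DESeq2. Their log2 fold changes lay between -0.18 and 0.26, with a median of -0.02. The nearest tested neighbours, 1 on either side, were BBS2 at -0.18 (SE 0.08) and NUP93 at -0.10 (SE 0.04). These were the 2 genes lower at an unadjusted p below 0.05 in edgeR and both limma fits, and NUP93 was the 1 in DESeq2.

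**Figure D3:**
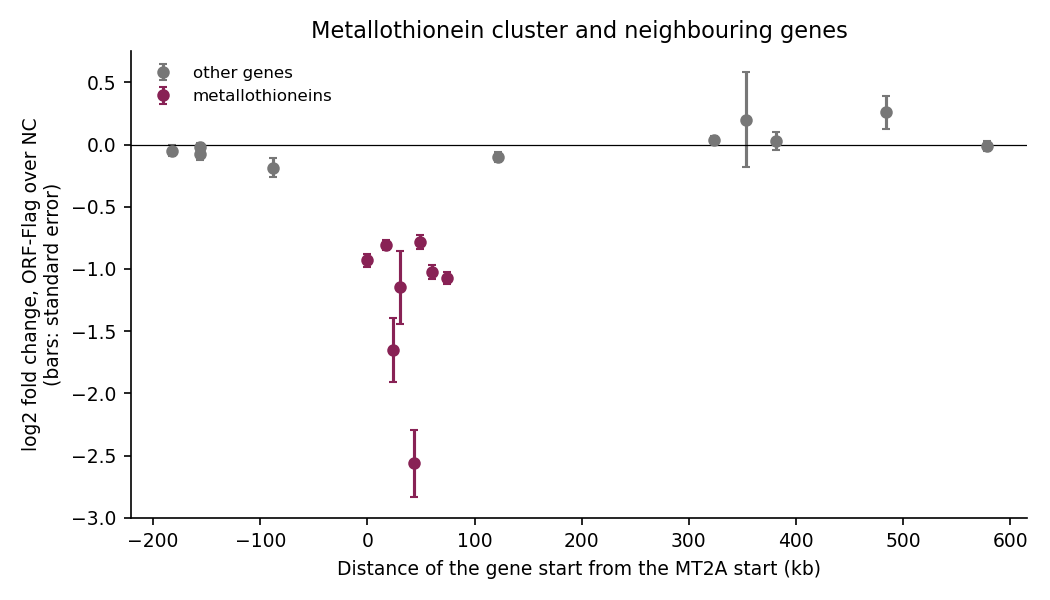
Log2 fold change, ORF-Flag over NC, of the tested genes in and around the metallothionein cluster, plotted by the distance of each gene start from the start of MT2A in kb. Bars are standard errors. The 8 metallothioneins lie between -2.56 and -0.79 and the 10 other genes between -0.18 and 0.26.

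Metallothionein transcripts are short, between 380 and 829 bases for the tested genes. Among the 341 other tested genes with principal transcripts of at most 829 bases, 8 (2.35%) were called lower and the median log2 fold change was 0.02. Of these, 226 also had a GC content of at least 50.5%, the lowest among the tested metallothioneins. The same 8 genes were among them, 3.54% of the 226, and the median log2 fold change of the 226 was -0.01. This split too was chosen after seeing the data.

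MTF1 (ENSG00000188786.10), which activates metallothionein genes, did not pass the test. Its level was 14.9, 16.0 and 18.9 CPM in NC and 18.6, 16.1 and 17.8 CPM in ORF-Flag, and the groups overlapped. The log2 fold change was 0.07 (SE 0.08). It was 0.18 without NC replicate 3 and 0.01 without NC replicate 1, and MTF1 was not called in either fit. The level of its transcript does not report the activity of the protein.

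Of the 10 zinc exporters, 7 were tested and 0 were called in edgeR, DESeq2, limma-trend or limma-voom, with 1 (SLC30A1) lower at an unadjusted p below 0.05 in edgeR and both limma fits and 0 in DESeq2, beside 9.22% of all tested genes lower in edgeR. SLC30A1 (ENSG00000170385.10), the exporter of the plasma membrane and a known MTF1 target, lay at 108, 112 and 103 CPM in NC and at 101, 99.1 and 103 CPM in ORF-Flag. The groups overlapped, and the log2 fold change of -0.09 (SE 0.04) was far smaller in size than those of the metallothioneins. The 7 tested exporters lay between -0.09 and 0.10, with a median of -0.03. SLC30A5, SLC30A6 and SLC30A7, which load zinc into the secretory pathway, were at -0.03 (SE 0.05), 0.10 (SE 0.07) and 0.05 (SE 0.07). Without NC replicate 1 SLC30A6 lay at 0.01, and without NC replicate 3 at 0.15. SLC30A9, SLC30A3 and SLC30A10, the last a manganese exporter, were at -0.05, -0.05 and -0.02. SLC30A2, SLC30A4 and SLC30A8 were not tested, with at most 2 counts in a library, and SLC30A8, known from pancreatic beta cells, had 0 counts throughout.

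Among the 14 zinc importers 12 were tested, and in edgeR, DESeq2 and both limma fits SLC39A5 was the member called, beside 1.98% of all tested genes called lower in edgeR. At an unadjusted p below 0.05, edgeR and both limma fits had 2 lower (SLC39A5 and SLC39A13) and 2 higher (SLC39A1 and SLC39A10), and DESeq2 had SLC39A5 lower and SLC39A10 higher, beside the shares of all genes given above. SLC39A5 (ENSG00000139540.12), an importer of the basolateral membrane of gut and pancreas cells that liver also expresses, lay at 93.2, 88.2 and 85.0 CPM in NC and at 72.4, 77.8 and 70.0 CPM in ORF-Flag. The groups did not overlap. Its log2 fold change was -0.28 (SE 0.05), so 82.6% of the NC level remained. ANKRD52 overlaps SLC39A5 on the other strand, and the strand setting of the counting is not given in the sources used here, so reads of the 2 genes may not be separated. SLC30A3, SLC39A1, SLC39A7, SLC39A9, SLC31A1, SLC31A2, ATP7A, ATOX1 and CCS also overlap a gene of the table on the other strand. SLC39A1, SLC39A3, ATP7A and COX17 overlap one on their own strand. How such reads were assigned was not tested.

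SLC39A10 (ENSG00000196950.14), which MTF1 is known to repress when zinc is high, lay at 29.6, 32.6 and 32.7 CPM in NC and at 35.3, 32.7 and 37.6 CPM in ORF-Flag. ORF-Flag replicate 2 lay level with NC replicate 3, the highest of the controls. The log2 fold change was 0.15 (SE 0.06), and SLC39A10 was not called. SLC39A14, the zinc and iron importer that rises in the liver during inflammation, was well expressed at 269, 281 and 268 CPM in NC and 265, 262 and 258 CPM in ORF-Flag, and its log2 fold change was -0.06 (SE 0.03). SLC39A7, which releases zinc from the endoplasmic reticulum, was the most abundant importer per length at 170 CPM per kb in NC, with a log2 fold change of -0.02 (SE 0.03).

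The 11 tested importers that were not called lay between -0.31 and 0.36. SLC39A13, at -0.31 (SE 0.13), had groups that overlapped, and its value moved with the library left out. It was -0.43 without NC replicate 3, where it was called lower, -0.15 without NC replicate 1 and -0.155 without ORF-Flag replicate 1. SLC39A4, at -0.09 (SE 0.06), was likewise called lower without NC replicate 3, at -0.18, and lay at 0.01 without NC replicate 1. SLC39A8 was at the other end, at 0.36 (SE 0.37), from 7 to 21 counts in a library. SLC39A1 was at 0.10 (SE 0.04) and SLC39A11 at 0.17 (SE 0.10), each with ORF-Flag above NC in all libraries, and SLC39A1 was called higher when the dependence of each library on GC content and transcript length was removed, an alternative chosen after seeing the data. SLC39A3, SLC39A4, SLC39A6 and SLC39A9 lay between -0.09 and 0.04. SLC39A2 and SLC39A12 had at most 2 counts in a library and were not tested. Over all tested genes, the ORF-Flag values lay below all NC values without overlap in 10.9% and above them in 11.5%, and among the 27 tested members outside the metallothioneins these were 2 and 3 genes.

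All 7 copper genes were tested and 0 were called in edgeR, DESeq2, limma-trend or limma-voom, with 1 (COX17) higher at an unadjusted p below 0.05 in each, beside 9.29% of all tested genes in edgeR and 4.72% in DESeq2. Their log2 fold changes lay between -0.14 and 0.23, with a median of -0.04. ATP7B, the copper pump that is defective in Wilson disease and that the liver uses to excrete copper, was at 67.4, 67.7 and 74.1 CPM in NC and 71.8, 69.5 and 71.4 CPM in ORF-Flag, with a log2 fold change of 0.02 (SE 0.05). SLC31A1, the main copper importer, was at 47.7, 50.6 and 48.7 CPM in NC and 47.6, 47.2 and 48.5 CPM in ORF-Flag, with a log2 fold change of -0.04 (SE 0.05). For both, the groups overlapped. ATP7A, the pump of most other tissues, was at -0.05 (SE 0.11), and SLC31A2 at 0.23 (SE 0.14). Without NC replicate 3 SLC31A2 lay at 0.13, and without NC replicate 1 at 0.34.

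Among the chaperones, ATOX1, which hands copper to the pumps, lay at 30.1, 28.5 and 27.8 CPM in NC and 28.6, 28.1 and 26.7 CPM in ORF-Flag, with a log2 fold change of -0.05 (SE 0.06). CCS, which loads copper into superoxide dismutase, was at -0.14 (SE 0.07). COX17, which carries copper for cytochrome c oxidase, lay at 22.8, 24.3 and 28.5 CPM in NC and 28.4, 28.3 and 29.9 CPM in ORF-Flag. NC replicate 3 lay within the range of ORF-Flag. The log2 fold change of COX17 was 0.19 (SE 0.07), and it was not called. It was called higher without NC replicate 3, at 0.29, and lay at 0.13 without NC replicate 1.

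**Figure D4:**
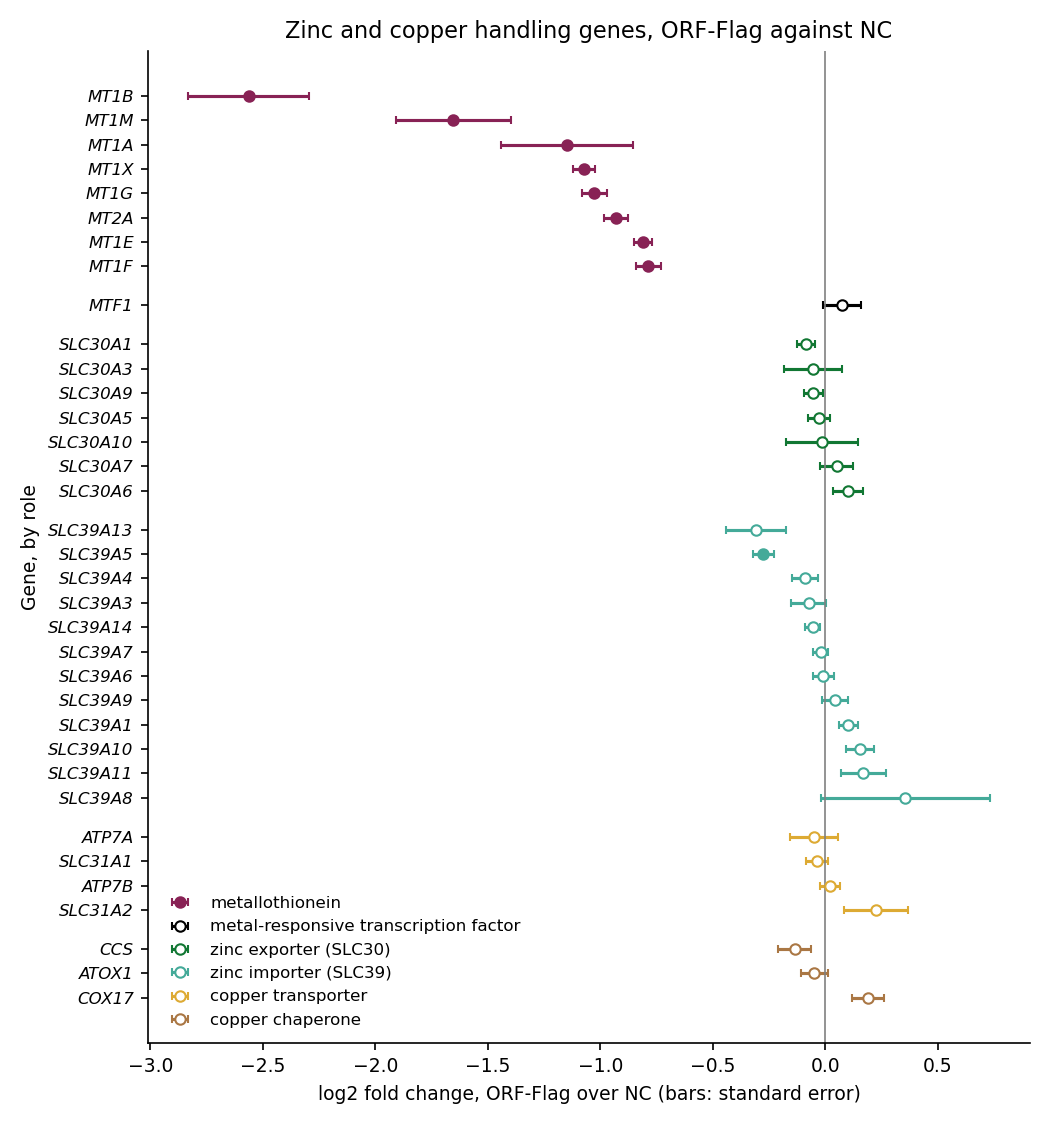
Log2 fold change, ORF-Flag over NC, of the 35 tested members, grouped by role. Bars are standard errors and filled points passed an adjusted p below 0.05 in edgeR. The 8 metallothioneins lie at -0.79 or below, SLC39A5 at -0.28, and the other 26 members, with open points, between -0.31 and 0.36.

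Other copper genes outside the 43 were read from a separate list of 16, of which 15 were tested, 0 were called lower and 1 was called higher in edgeR, DESeq2 and both limma fits, beside 2.47% of all tested genes called higher in edgeR. At an unadjusted p below 0.05, 2 were lower in edgeR and both limma fits and 1 in DESeq2, and 1 was higher in each, beside 9.22% lower and 9.29% higher of all tested genes in edgeR and 5.03% and 4.72% in DESeq2. The gene called higher was CP, which encodes ceruloplasmin, the copper-carrying ferroxidase that hepatocytes secrete. CP lay at 11.7, 14.1 and 12.9 CPM in NC and at 19.8, 15.5 and 16.4 CPM in ORF-Flag, with a log2 fold change of 0.42 (SE 0.09). SCO2, a copper chaperone of cytochrome c oxidase, had the lowest value of the list, at -0.25 (SE 0.08), and COA6 was at -0.12 (SE 0.05). Both had ORF-Flag below NC in all libraries but were not called, and both are named after their values were seen. Groups without overlap came to 2 lower and 1 higher of the 15, beside 10.9% and 11.5% of all tested genes. SOD1 was at -0.07 (SE 0.03), the mitochondrial phosphate and copper carrier SLC25A3 at -0.02 (SE 0.03) and COX11 at -0.05 (SE 0.04).

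Glucocorticoids also induce metallothioneins. Of 10 glucocorticoid-responsive genes, 9 were tested and 0 were called in edgeR, DESeq2 or either limma fit. At an unadjusted p below 0.05 there were 0 lower in any tool, and 1 higher in edgeR and limma-voom, 2 in limma-trend (SGK1 and KLF9) and 0 in DESeq2, beside 9.29% of all tested genes higher in edgeR, 9.24% in limma-voom, 9.53% in limma-trend and 4.72% in DESeq2. The log2 fold changes of the 9 lay between -0.16 and 0.35. FKBP5, which is strongly induced by glucocorticoids in many cells, was at -0.09 (SE 0.05) and ERRFI1 at -0.04 (SE 0.03), both with ORF-Flag below NC in all libraries. SGK1, at 0.15 (SE 0.06), had ORF-Flag above NC in all libraries and was the gene at an unadjusted p below 0.05 in edgeR. Groups without overlap came to 2 lower and 1 higher of the 9, beside 10.9% and 11.5% of all tested genes.

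Of 10 genes that respond to heavy metals and oxidants, all were tested, and in edgeR and both limma fits 3 were called lower and 0 higher, beside the 1.98% and 2.47% of all tested genes in edgeR. DESeq2 called 1 of them lower, HSPA1B, and 0 higher. At an unadjusted p below 0.05, 5 were lower in edgeR and 4 in DESeq2 and both limma fits, and 1 was higher in each. Over all genes with a p these shares were 9.22% and 9.29% in edgeR, 5.03% and 4.72% in DESeq2 and, as given above, near those of edgeR in the limma fits. HSPA1A and HSPA1B, inducible heat shock proteins whose transcripts are nearly identical so that their counts are uncertain, were at -0.25 (SE 0.06) and -0.20 (SE 0.04). The groups of HSPA1A overlapped, with ORF-Flag replicate 2 at 237 CPM and NC replicate 1 at 234 CPM. GCLM, a subunit of the enzyme that starts glutathione synthesis, was at -0.18 (SE 0.05). The other 7 were not called, among them NQO1 at 0.01 (SE 0.03), TXNRD1 at 0.01 (SE 0.03) and GSR at -0.05 (SE 0.03). Named after their values were seen, HMOX1, which heavy metals and heme induce, was at -0.14 (SE 0.05) with ORF-Flag below NC in all libraries, and the cystine importer SLC7A11 at 0.19 (SE 0.07) with ORF-Flag above NC in all libraries. Groups without overlap came to 4 lower and 1 higher of the 10, beside 10.9% and 11.5% of all tested genes.

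**Figure D5:**
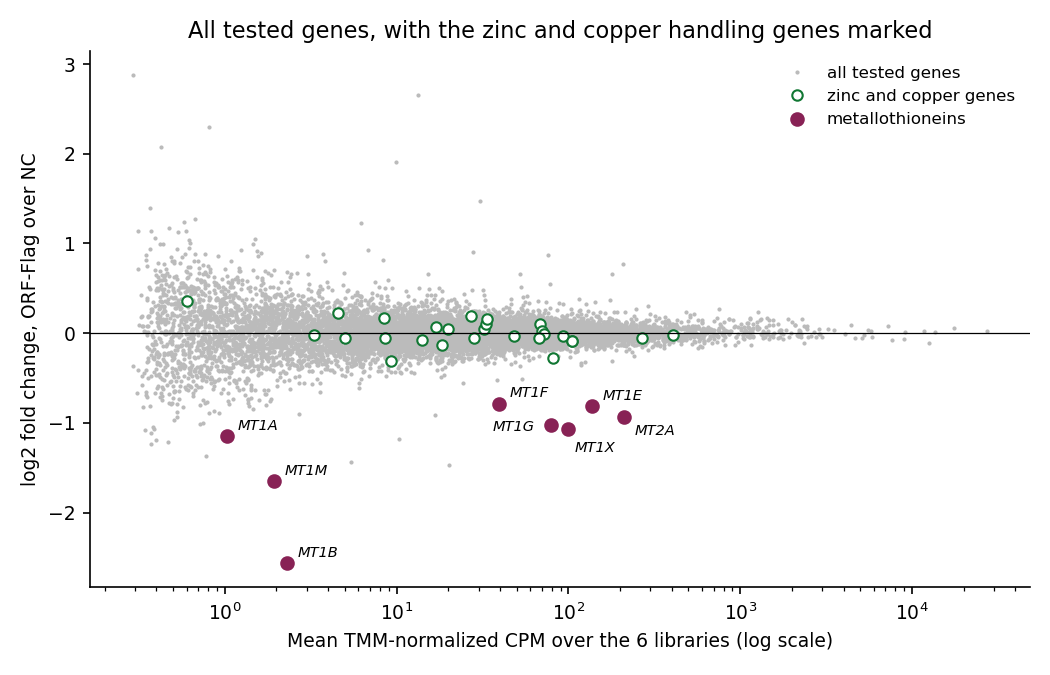
Log2 fold change, ORF-Flag over NC, against mean TMM-normalized CPM on a log scale, with a grey point for each of 12386 tested genes. The 8 metallothioneins, filled and named, lie between -2.56 and -0.79 at levels from MT1A to MT2A. The 27 other members, open, lie between -0.31 and 0.36. Among all tested genes, those not called reach down to -1.47.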

How the data were processed

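Total RNA of HepG2 cells was sequenced in 3 NC and 3 ORF-Flag libraries. The table the authors deposited holds unnormalized read counts for 20422 genes with Ensembl identifiers. The submitters' processing notes name cutadapt 1.11, HISAT2 2.1.0, featureCounts 1.6.0, edgeR and the build GRCh38, and the annotation, the strand setting and the treatment of reads with several matches are not given in the sources used here. Identifiers without their version gave a symbol for 19825 rows, and 4055 rows had 0 counts in each library. Pairs of libraries within a group differed by more than sampling noise, with a chi-square per degree of freedom between 2.39 and 5.23.

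Groups were compared over the whole table in edgeR 4.0.16 (R 4.3.3) with filterByExpr, which kept 12386 genes, TMM factors between 0.995 and 1.01, the quasi-likelihood test and Benjamini-Hochberg adjustment, and genes were called at an adjusted p below 0.05. CPM are TMM-normalized, and the standard error (SE) of each log2 fold change follows from its F statistic. The edgeR, DESeq2 and limma fits were tested on simulated data, and the fits with a library left out or with the GC content and length dependence removed were not. Alternatives were DESeq2 1.42.0, limma-trend and limma-voom (limma 3.58.1), other scalings and filters, a block for the replicate number, leaving out each library, a fold change above 1.2 with an unadjusted p below 0.05, and sums without MT1X or MT2A. A fit that removes how each library depends on GC content and transcript length was added after seeing the data. Full values are given for members that were called, metallothioneins with at least 10 counts in a library, MTF1, SLC30A1, SLC39A10 and the copper genes with the most counts. A few further genes were named after their values were seen. The members and the gene lists were chosen with earlier results of these data known.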

Additional observations from a re-analysis of the deposited data

How the results depend on the processing

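The summed metallothionein log2 fold change of -0.93 kept its direction under all alternatives run, between -0.94 and -0.90 with other tools, scalings, filters and sums and between -0.99 and -0.90 with 1 library left out. In edgeR, 551 genes of the table were called, 410 in DESeq2 and 824 without a filter, with the other tools, scalings, filters and the other call rule in between. With 1 library left out it was lowest without ORF-Flag replicate 3, at 199, and highest at 1058 when NC replicate 3 was dropped, and the cause was not tested. The number of members called lower, 9, was 8 to 10 with 1 library left out, 8 with at least 10 counts in every sample, where MT1A was not tested, 10 by fold change above 1.2 and unadjusted p below 0.05, with SLC39A13 added, and 9 in the other edgeR and limma fits. DESeq2 called 6, and gave no adjusted p for MT1A, MT1B and MT1M, which had few counts. The number called higher, 0, was 0 to 1 with 1 library left out (COX17 without NC replicate 3) and 1 (SLC39A1) with the GC content and length trend removed, and the cause was not tested. The replicate number as a block gave 731 called genes, 9 members lower, 0 higher and a summed log2 fold change of -0.93. Deviations of same-numbered libraries correlated at 0.07, 0.03 and 0.04, and those of libraries with unlike numbers at -0.08 to 0.03. Such small correlations cannot show whether same-numbered libraries were handled together. No pairing was assumed in the main fit. All 313 log2 fold changes of single members under other settings, and all 210 with 1 library left out, moved by less than the spread between replicates. Dropping 1 of 3 replicates can move a group mean by only part of that spread, so the 210 values do not show stability. The calls of MT1A, SLC39A13, SLC39A4 and COX17 changed with 1 library left out. Depth limits what can be said of MT1A, MT1B, MT1M and SLC39A8, and of the 8 members that were not tested.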
